A study of Mus musculus with 12 samples.

Results

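The genes described here encode 10 immediate-early transcription factors of the AP-1 and EGR families, namely Fos, Fosb, Fosl1, Fosl2, Jun, Junb, Jund, Egr1, Egr2 and Egr3. They were chosen by name, with earlier results of these data known, from the 24062 gene symbols of the count table. All 10 were in it, and all 10 were among the 12154 genes that passed the filter on low counts. RNA had been sequenced from mouse embryonic fibroblasts (MEFs), and reads were counted per gene. The shRenilla MEFs carried a control shRNA against Renilla luciferase, and the shBruce MEFs carried one that targets Birc6, which encodes the ubiquitin ligase BRUCE. Both lines were kept in full medium (FM) or starved for 2 h in a medium that held neither serum nor amino acids (Starv), with 3 libraries in each of the 4 conditions. There was 1 line per shRNA, so other differences between the lines cannot be told apart from the knockdown, and the removal of serum cannot be told apart from that of amino acids. The labels do not say whether the replicates came from separate cultures, so p-values measure the spread between these libraries, which may be technical.

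AP-1 is a dimer of leucine zipper proteins. FOS proteins bind DNA only with a partner, usually a JUN protein, while JUN proteins can also pair with each other. EGR proteins bind GC-rich sites through zinc fingers. Growth factors in serum induce many of these genes within minutes and without new protein synthesis, through ERK signalling to the serum response factor SRF and its partners at CArG boxes, and through CREB factors at cAMP response elements (CREs). Fosl1 and Fosl2 respond more slowly than Fos and Fosb, and Jund is known for a steadier level in resting and growing fibroblasts than Jun and Junb.

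Total counts ranged from 7717265 to 18510540 per library. Normalized counts below are counts divided by the TMM-scaled library size, brought to a common depth. The 3 shBruce Starv libraries differed most among themselves, with a chi-square per degree of freedom of 49.0 to 98.4 between pairs, against 2.24 to 28.9 within the other conditions. Among them, replicate 1 was the shallowest library of all, with 7717265 counts. Birc6 lay between 3273 and 5061 normalized counts in shRenilla FM and between 2787 and 4759 in shRenilla Starv. It lay between 1207 and 1390.4 in shBruce FM and between 703 and 1226 in shBruce Starv, below every shRenilla library (log2 fold change -1.75 in FM and -1.98 in Starv, edgeR adjusted p = 0.0627 and 0.0186). Summed normalized counts of 10 fibroblast markers lay between 119355 and 131172 in the Starv libraries and between 138454 and 173682 in the FM libraries, but the fibroblast markers Thy1 and Lum did not exceed 2.45 and 2.02 normalized counts. Sums of epithelial markers did not exceed 58.5, of endothelial markers 64.0, of muscle markers 82.8 and of blood and macrophage markers 147.6. In bulk RNA, fewer cells of a type and less RNA per cell cannot be told apart. The part of these differences in the results below was not tested.

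Per kilobase of exon, the members fell into an abundant and a scarce set. In shRenilla FM, Fosl1 was the highest, with 1776 ± 91.8 normalized counts per kb (SD, n = 3). It was followed by Jun with 1136 ± 65.2, Jund with 1024 ± 90.9 and Junb with 955 ± 115, of which neighbours in this order overlapped. Fosl2 with 631 ± 39.1 and Egr1 with 322 ± 22.8 came next and were apart from their neighbours. The scarce set held Egr3 with 42.6 ± 1.91, Fosb with 40.3 ± 2.58, Fos with 22.3 ± 2.49 and Egr2 with at most 21.3, and within it Egr3 overlapped Fosb and Fos overlapped Egr2. Fos, the founding member of its family, was thus counted with only 10 to 58 reads per library, and Egr2, a zinc-finger factor best known from hindbrain and Schwann cells, with 8 to 72. The order in shBruce FM was the same except that Jund (1423 ± 183, SD, n = 3) stood before Jun (1127 ± 76.6). After starvation, Jund was the highest member in both lines, with 697 ± 158 normalized counts per kb in shRenilla Starv, where its range lay above that of Fosl1, and 1274 ± 638 in shBruce Starv, where the ranges overlapped.

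**Figure D1:**
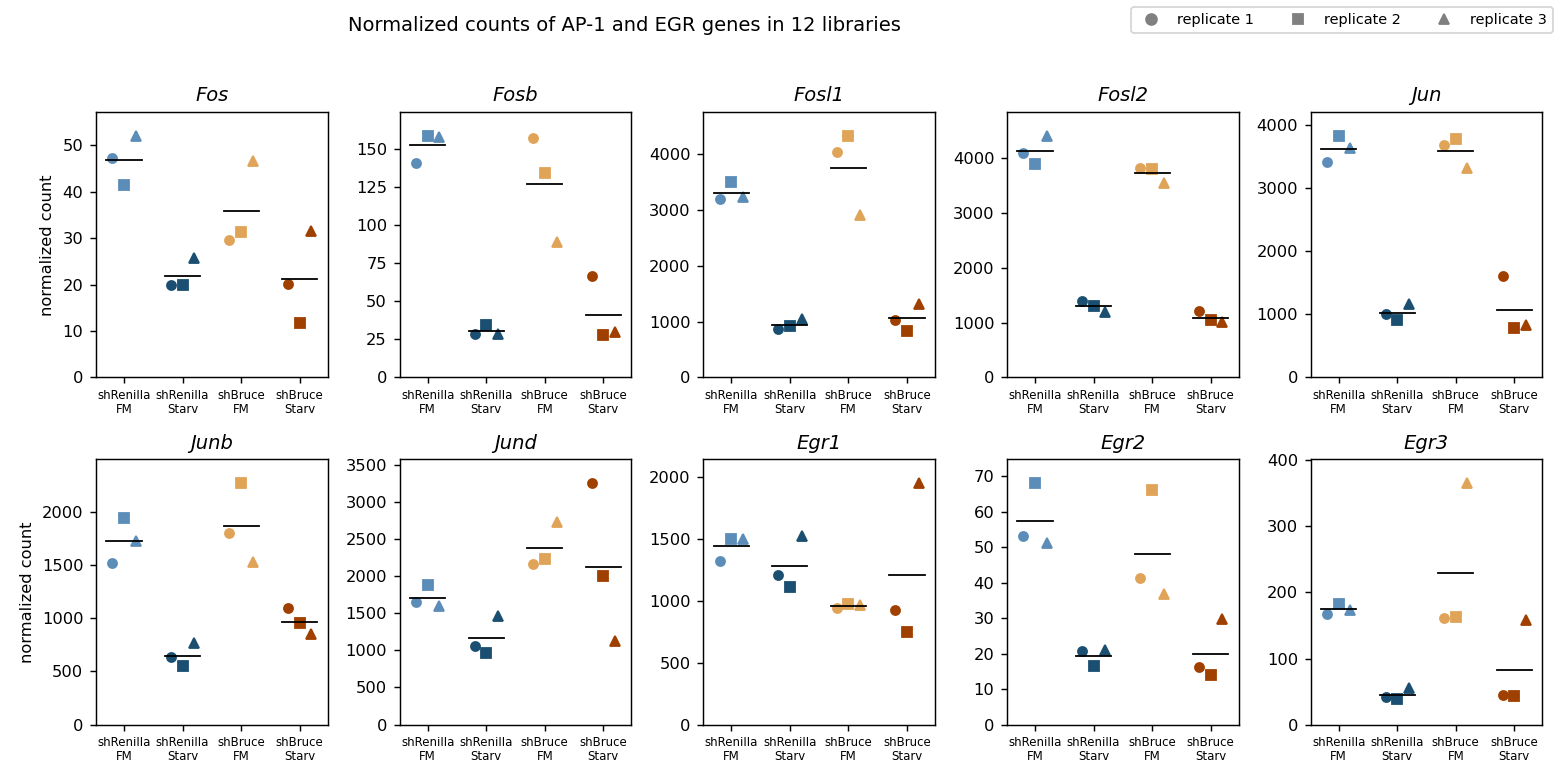
Normalized counts (vertical axis, linear, from 0) of each of the 10 genes in the 12 libraries, grouped by line and medium, with a symbol for each replicate and a bar for the mean of 3 libraries. The means lie lower in Starv than in FM in both lines for every gene but Egr1, and the shBruce Starv libraries of Jund run from 1130.4 to 3246.

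To ask how starvation changed these factors, Starv was compared with FM within each line by edgeR's quasi-likelihood test, with adjustment over all 12154 genes. This joint fit estimated the spread of each gene once over all 4 conditions. Its standard errors and p-values therefore do not reflect the wider spread of the shBruce Starv libraries on their own. In shRenilla MEFs, 8 of the 10 genes fell and 0 rose. Over all genes tested, 7.27% fell and 9.69% rose in that comparison. In shBruce MEFs, 7 of the 10 fell and 0 rose, against 10.6% and 12.4% of all genes. The median log2 fold change of the 10 genes was -1.61 in shRenilla and -1.32 in shBruce MEFs, while the medians over all genes were -0.01 and 0.02. FM and Starv libraries did not overlap for 9 of the 10 genes in shRenilla and for 7 in shBruce MEFs. Starv libraries all lay below FM libraries for 26.5% of all genes in shRenilla and 14.8% in shBruce MEFs. They all lay above for 25.9% and 16.2%. Each gene without overlap had an exact two-sided permutation p of 0.1, the smallest that 3 libraries against 3 allow. In shBruce MEFs, the number that fell was 6 without Starv replicate 1, 5 without replicate 2 and 8 without replicate 3.

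Among the FOS genes, Fosl1, which encodes FRA-1 (chr19:5447547-5455946, plus strand, GRCm38), was counted in shRenilla MEFs at 3194, 3507 and 3231 in FM and at 874, 922 and 1047 in Starv. In shBruce MEFs it was counted at 4038, 4323.5 and 2918 in FM and at 1031.5, 834 and 1324.5 in Starv. Every Starv library lay far below every FM library in both lines. It fell to 28.6% of its FM level in shRenilla (log2 fold change -1.81 ± 0.18, SE; edgeR adjusted p = 2.88e-05) and to 28.3% in shBruce MEFs (-1.82 ± 0.18, SE; edgeR adjusted p = 2.25e-05). The annotation places the gene Ccdc85b across 2767 bases of its span on the opposite strand, and without a stated strand setting in the counting the reads of both cannot be told apart. Ccdc85b itself differed from FM by -0.43 (log2) in shRenilla and by 0.20 in shBruce MEFs.

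Fosl2, which encodes FRA-2 (chr5:32135801-32157842, plus strand), had the decrease with the smallest standard error. In shRenilla MEFs its normalized counts were 4090.0, 3888 and 4396 in FM and 1396, 1309 and 1191 in Starv. Those in shBruce MEFs were 3818, 3799 and 3545 in FM and 1213, 1051 and 1006 in Starv. Libraries of a condition lay close together and the media did not overlap. The log2 fold change was -1.67 ± 0.11 (SE) in shRenilla, with an edgeR adjusted p of 1.47e-06, and -1.77 ± 0.12 (SE) in shBruce MEFs, with an edgeR adjusted p of 5.43e-07.

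Fosb (chr7:19302696-19310051, minus strand), a fast serum-induced relative of Fos, fell by 2.31 on the log2 scale in shRenilla MEFs (± 0.29, SE; edgeR adjusted p = 0.000174), the largest decrease of the 10 genes there. Its counts were 141, 158 and 158 in FM and 28.7, 34.6 and 28.6 in Starv. In shBruce MEFs they were 157, 134 and 89.3 in FM and 66.6, 27.7 and 29.7 in Starv. The media did not overlap in either line, but replicate 3 in FM and replicate 1 in Starv stood towards each other, and the log2 fold change was -1.71 ± 0.30 (SE; edgeR adjusted p = 0.00147).

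Fos (chr12:85473890-85477273, plus strand) was counted at 47.3, 41.5 and 52.0 in shRenilla FM and at 19.95, 19.9 and 25.7 in shRenilla Starv. It was counted at 29.7, 31.4 and 46.6 in shBruce FM and at 20.2, 11.7 and 31.6 in shBruce Starv. The media were apart in shRenilla and overlapped in shBruce MEFs. The log2 fold change was -1.10 ± 0.30 (SE) in shRenilla MEFs, with an edgeR adjusted p of 0.0237. This call was lost without FM replicate 1 (adjusted p = 0.072), FM replicate 3 (0.0869), Starv replicate 1 (0.1) or Starv replicate 2 (0.0974). In shBruce MEFs it was -0.74 ± 0.33 (SE), with an adjusted p of 0.122, and it passed only without Starv replicate 3 (-1.26, adjusted p = 0.0143).

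Of the JUN genes, Jun (chr4:95049034-95052222, minus strand), the main partner of FOS proteins, was counted at 3406, 3820.3 and 3643.5 in shRenilla FM and at 1003, 916 and 1169 in shRenilla Starv. Its counts were 3685, 3778 and 3316 in shBruce FM and 1605, 778 and 828.5 in shBruce Starv. The media were far apart in both lines, with replicate 1 the highest of the shBruce Starv libraries. Jun fell to 28.4% of FM in shRenilla (log2 fold change -1.82 ± 0.23, SE; edgeR adjusted p = 0.000153) and to 29.6% in shBruce MEFs (-1.76 ± 0.23, SE; edgeR adjusted p = 0.00017). An annotated antisense RNA overlaps 689 bases of Jun, and reads of both strands cannot be told apart here.

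Junb (chr8:84974484-84978718, minus strand), which in many settings restrains the activity of JUN, was counted at 1521, 1938 and 1724 in shRenilla FM and at 631, 548 and 764 in shRenilla Starv. In shBruce MEFs its counts were 1802, 2265 and 1525 in FM and 1092, 956 and 852 in Starv. The media did not overlap in either line, with a smaller gap in shBruce MEFs. It fell to 37.5% of FM in shRenilla (log2 fold change -1.42 ± 0.17, SE; edgeR adjusted p = 0.000143) and to 51.8% in shBruce MEFs (-0.95 ± 0.17, SE; edgeR adjusted p = 0.00181).

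Jund (chr8:70698949-70700616, plus strand) did not pass the test in either line. Its counts were 1644, 1880.4 and 1598 in shRenilla FM and 1055, 970.1 and 1462 in shRenilla Starv. In shBruce MEFs they were 2164, 2231 and 2724 in FM and 3246, 1998 and 1130.4 in Starv. In shRenilla MEFs the media were just apart, while the shBruce Starv libraries stood on both sides of the FM libraries. The log2 fold change was -0.55 (95% confidence interval -1.17 to 0.06, edgeR adjusted p = 0.202) in shRenilla and -0.16 (-0.78 to 0.45, edgeR adjusted p = 0.708) in shBruce MEFs. In shRenilla MEFs it passed in a fit of only the groups compared (adjusted p = 0.0133), with each library's length and GC trends removed (0.0469) or without shBruce Starv replicate 3 (0.0455). In shBruce MEFs it passed with the trends removed (-0.49, adjusted p = 0.029) and turned to 0.14 without Starv replicate 3. An annotated antisense RNA overlaps 919 bases of Jund as well.

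**Figure D2:**
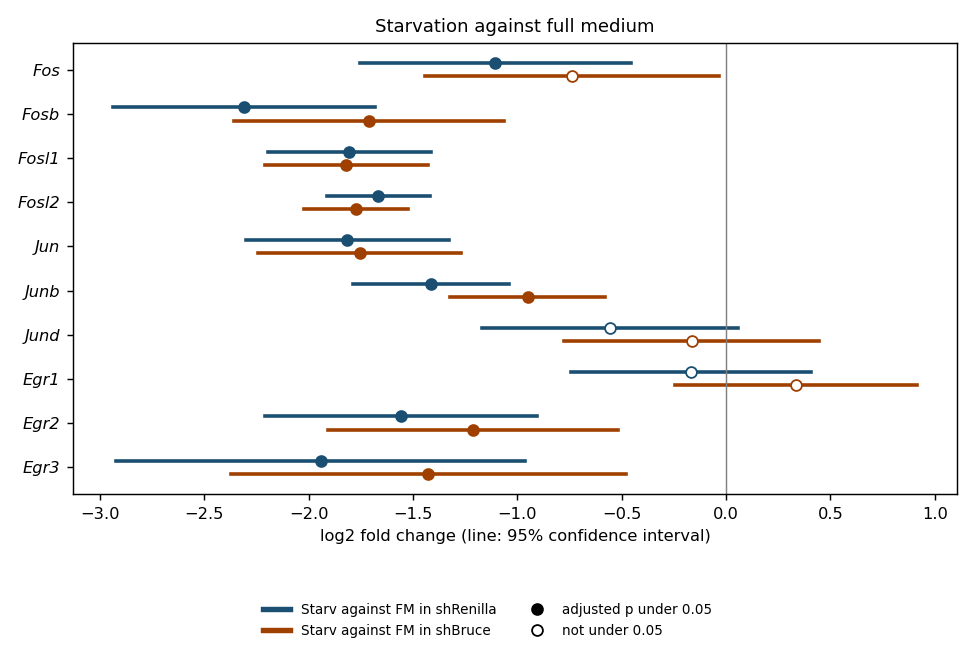
Log2 fold change of Starv against FM (horizontal axis) of each gene in shRenilla (blue) and shBruce MEFs (brown), with lines for the 95% confidence intervals and filled circles for an edgeR adjusted p under 0.05. Fosl1, Fosl2 and Jun lie between -1.67 and -1.82 in both lines, and Egr1 and Jund lie nearest to 0.

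The EGR genes divided in another way. Egr3 (chr14:70077203-70082614, plus strand), a factor downstream of growth factor and calcium signals, was counted at 167, 183 and 174 in shRenilla FM and at 42.3, 38.9 and 55.2 in shRenilla Starv. Its counts were 161, 162 and 365 in shBruce FM and 44.4, 42.7 and 159 in shBruce Starv. The media were apart in both lines, although the highest shBruce Starv library came close to the lowest FM libraries. In shBruce MEFs, replicate 3 was the highest library of both media. The log2 fold change was -1.94 ± 0.45 (SE) in shRenilla (edgeR adjusted p = 0.0103, and 0.0517 without Starv replicate 2) and -1.43 ± 0.44 (SE) in shBruce MEFs (edgeR adjusted p = 0.032). The shBruce call was lost without FM replicate 3 (-0.92, adjusted p = 0.147), Starv replicate 1 (0.0804) or Starv replicate 2 (0.0978) and in a fit of only the groups compared (0.127), and without Starv replicate 3 the log2 fold change was -2.41.

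Egr2 (chr10:67535475-67542188, plus strand) was counted at 53.0, 67.9 and 51.1 in shRenilla FM and at 20.8, 16.4 and 20.9 in shRenilla Starv. In shBruce MEFs it was counted at 41.4, 66.0 and 36.7 in FM and at 16.2, 13.9 and 29.7 in Starv. The media did not overlap in either line. Egr2 fell to 34.0% of FM in shRenilla (log2 fold change -1.56 ± 0.30, SE; edgeR adjusted p = 0.00353) and to 43.1% in shBruce MEFs (-1.21 ± 0.32, SE; edgeR adjusted p = 0.0161). The latter call was lost in a fit of only the groups compared (adjusted p = 0.0912), without FM replicate 2 (0.0774) and without Starv replicate 2 (0.0569).

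Egr1, the most abundant EGR gene and a classic serum-response gene, did not pass the test in either line. It was counted at 1324, 1501 and 1501 in shRenilla FM and at 1212, 1115.5 and 1527 in shRenilla Starv. The shBruce values were 942, 975 and 963 in FM and 924.5, 747 and 1949.6 in Starv. The media overlapped in both lines, and the highest of all 12 values was that of shBruce Starv replicate 3. The log2 fold change was -0.17 (95% confidence interval -0.74 to 0.41, edgeR adjusted p = 0.707) in shRenilla and 0.34 (-0.25 to 0.92, edgeR adjusted p = 0.391) in shBruce MEFs, and the latter was -0.21 (adjusted p = 0.29) without Starv replicate 3.

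The make-up of each family is given per kilobase of exon and as a description. The 4 FOS genes summed to 2469.7 ± 69.5 normalized counts per kb (SD, n = 3) in shRenilla FM and to 725.5 ± 33.8 in shRenilla Starv, and to 2637 ± 425 and 758 ± 133 in shBruce MEFs. Fosl1 made up 70.0% to 76.2% of this sum on average in the 4 conditions and Fosl2 most of the rest, so the make-up of the FOS pool moved little. The JUN sum went from 3115 ± 257 to 1378 ± 257 in shRenilla and from 3579.9 ± 172 to 2144 ± 836 in shBruce MEFs. Within it, the Jund share went from 32.9% ± 1.37 to 50.4% ± 2.01 in shRenilla and from 39.8% ± 5.83 to 57.6% ± 8.30 in shBruce MEFs (SD, n = 3). Jund thus held the largest share of the JUN sum in Starv in both lines. In shBruce MEFs it already did so in FM, where Jun held 31.5% ± 1.97 and Junb 28.7% ± 4.60 (SD, n = 3). The ratio of the FOS sum to the JUN sum went from 0.795 ± 0.0427 to 0.536 ± 0.0753 in shRenilla and from 0.736 ± 0.108 to 0.399 ± 0.203 in shBruce MEFs, where the ranges overlapped. The Egr1 share of the EGR sum was 84.1% ± 0.875 in FM and 94.3% ± 0.173 in Starv in shRenilla, and 75.5% ± 6.44 and 91.6% ± 1.42 in shBruce MEFs.

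**Figure D3:**
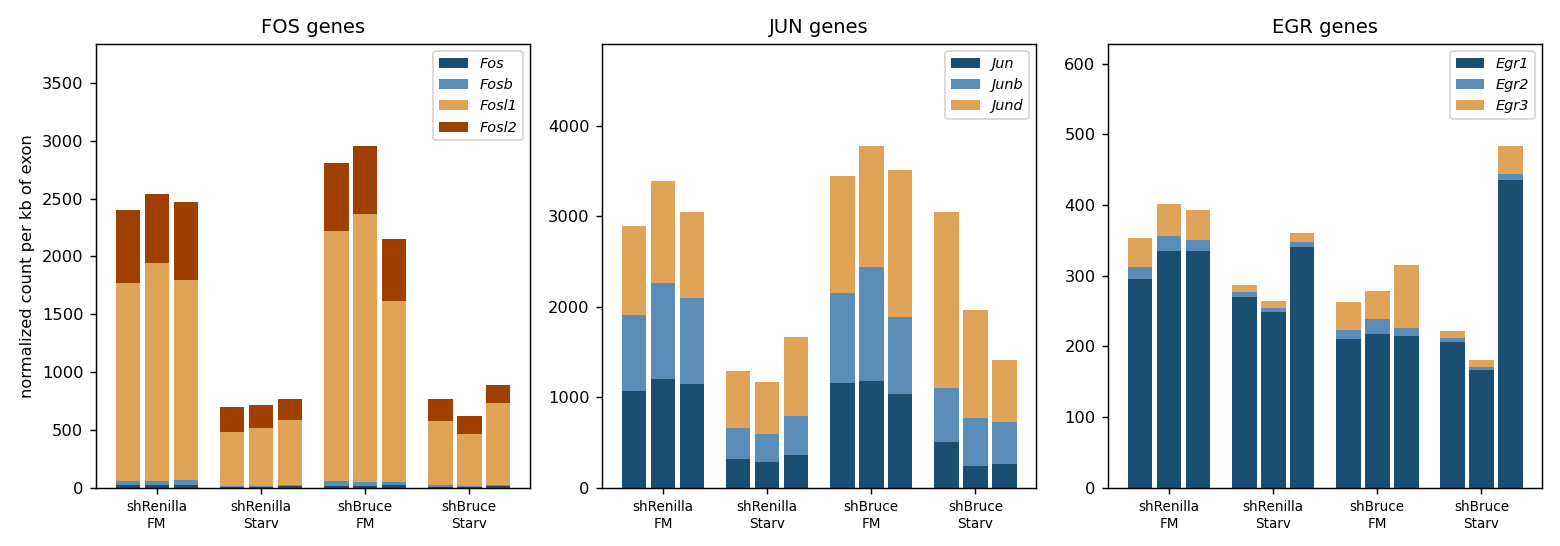
Normalized counts per kb of exon (vertical axis, linear, from 0) of the FOS, JUN and EGR genes, stacked for each of the 12 libraries in replicate order within each line and medium. The FOS bars shrink with Fosl1 still the main part, while the JUN bars keep more of their Jund than of their Jun in Starv and the EGR bars consist mostly of Egr1.

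The stretches of DNA before the start sites are shown for members that fell together in shRenilla MEFs, since serum-responsive motifs are known from this family of promoters. Promoters of 7 of the 10 genes were searched, at starts of the RefSeq table on GRCm38. No promoter entry was available for Fosl1 and Egr3. Egr1 was left out of this search beforehand, so its promoter was not looked at. In the 250 bases before each start, both strands were searched for the AP-1 site TGACTCA, the CRE TGACGTCA, its core TGACG (which lies within the CRE), the AP-1-like octamer TGACATCA, the EGR site GCGNGGGCG and the CArG box. Capitals mark the matches in the 120 bases printed, positions count back from -1 at the last base before the start, and each strand is that of the gene.
Jun, chr4:95052223-95052342: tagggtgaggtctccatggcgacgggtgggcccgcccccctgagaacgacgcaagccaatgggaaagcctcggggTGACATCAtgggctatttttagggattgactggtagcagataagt
Fosb, chr7:19310052-19310171: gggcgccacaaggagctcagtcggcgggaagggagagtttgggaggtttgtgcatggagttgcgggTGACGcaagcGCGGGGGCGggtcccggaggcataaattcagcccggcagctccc
Fos, chr12:85473770-85473889: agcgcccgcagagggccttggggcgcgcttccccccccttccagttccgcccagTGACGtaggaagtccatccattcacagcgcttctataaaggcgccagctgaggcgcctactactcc
Junb, chr8:84978749-84978868: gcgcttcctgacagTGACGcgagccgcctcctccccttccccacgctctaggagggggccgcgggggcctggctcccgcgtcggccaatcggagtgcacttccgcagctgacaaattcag
Egr2, chr10:67537749-67537868: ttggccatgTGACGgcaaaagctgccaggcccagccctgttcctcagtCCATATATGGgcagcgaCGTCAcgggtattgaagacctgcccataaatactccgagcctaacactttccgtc

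The Jun stretch holds the AP-1-like octamer at -45, a motif found in 2.93% of the 32851 promoters of the table. The core TGACG, present in 17.8% of them, lies at -66 in Fos (and at -129, before the printed stretch), at -60 in Fosb and at -106 in Junb. In Fosb it is followed at -50 by an EGR site, which 4.70% of promoters hold and which Fosl2, not shown, has at -79. The Jund entry starts upstream of the annotated gene, held none of the motifs and is not shown. The Egr2 stretch has a CArG box at -72, found in 1.47% of promoters, with the core TGACG on either side of it. This start is 1 of several that the table gives for Egr2 and lies within the annotated gene span. Counted from other starts close by, the same CArG box lies at -73 or -133. The stretch before a further start held a different CArG box, also at -72. The stretch before the first annotated base of Egr2 held none of the motifs. None of these 5 stretches holds the AP-1 site or the full CRE, which are in 4.46% and 1.55% of promoters. The matches describe the letters only, sites farther upstream were not searched, and binding was not measured.

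The other genes of the pathway were taken from lists written from general knowledge, with earlier results of these data known. The counts below are therefore not independent of these data. Of 8 tested dimer partners of FOS and JUN proteins, 2 rose and 1 fell with starvation in shRenilla MEFs, and 3 rose and 1 fell in shBruce MEFs (medians 0.37 and 0.36). Over all genes, 9.69% rose and 7.27% fell in shRenilla MEFs, and 12.4% rose and 10.6% fell in shBruce MEFs. Jdp2, a repressor that pairs with JUN proteins, went from 190.0 ± 6.71 to 611 ± 31.3 normalized counts (SD, n = 3) in shRenilla MEFs (log2 fold change 1.69 ± 0.23, SE; edgeR adjusted p = 0.000341) and rose by 1.61 in shBruce MEFs (edgeR adjusted p = 0.000399). Atf3, a stress-induced partner, rose by 1.16 and 1.12 (edgeR adjusted p = 0.000253 and 0.000286). The small MAF gene Maff fell (-0.69 and -0.73, edgeR adjusted p = 0.00379 and 0.00213), while Mafg passed in shBruce MEFs (0.75, edgeR adjusted p = 0.0235). Jdp2 and Atf3 thus rose in the same libraries in which most FOS and JUN genes fell.

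Of 2 tested EGR relatives and co-repressors, Nab2, which binds EGR proteins and limits their activity, fell in both lines (-0.79 and -0.76, edgeR adjusted p = 0.00499 and 0.00493). Among 9 factors that act at immediate-early promoters, 0 rose and 2 fell in each line, with medians of 0.06 and 0.04. Of all genes, 9.69% rose and 7.27% fell in shRenilla MEFs, and 12.4% rose and 10.6% fell in shBruce MEFs. Srf fell from 2089 ± 135 to 772.5 ± 38.3 normalized counts (SD, n = 3) in shRenilla MEFs (-1.44 ± 0.14, SE; edgeR adjusted p = 2.66e-05) and by 1.31 on the log2 scale in shBruce MEFs (edgeR adjusted p = 4.8e-05). Elk3, an SRF partner, was the second to fall in shRenilla MEFs (-0.51, edgeR adjusted p = 0.0423), and Mkl1, a coactivator of SRF, in shBruce MEFs (-0.51, edgeR adjusted p = 0.0125). Of 13 kinases of the ERK and JNK pathways, 1 fell in shRenilla and 2 fell in shBruce MEFs, near the 7.27% and 10.6% of all genes. The kinase genes that fell were Map2k4, an activator of JNK, in both lines (-0.46 and -0.53, edgeR adjusted p = 0.0187 and 0.00682) and the ERK-activated kinase gene Rps6ka1 in shBruce MEFs (-0.48, edgeR adjusted p = 0.0404). The calls of Elk3 and of Map2k4 in shRenilla MEFs were each lost without 1 of several single libraries (adjusted p up to 0.133 and 0.085). In shBruce MEFs, those of Mkl1, Rps6ka1 and Mafg were lost without FM replicate 2 (0.0569, 0.0522 and 0.0879), that of Mafg also without FM replicate 1 (0.0691) and that of Rps6ka1 without most other single libraries (up to 0.148). A fit of only the groups compared lost the shBruce calls of Nab2 (edgeR adjusted p = 0.0543) and Map2k4 (0.0876). It also lost those of Mkl1 (0.117), Mafg (0.116) and Rps6ka1 (0.207), and kept that of Srf (0.00504).

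Of 18 tested genes known as AP-1 or EGR targets in fibroblasts, 11 fell in shRenilla and 9 in shBruce MEFs, 0 rose in either, and the median log2 fold change was -1.16 in both. The shares of all genes that fell were 7.27% and 10.6%, and 9.69% and 12.4% rose. The cytokine gene Lif fell most, from 1115 ± 49.6 to 128 ± 10.3 normalized counts (SD, n = 3) in shRenilla (-3.12 ± 0.19, SE; edgeR adjusted p = 6.07e-07) and to 93.0 ± 10.5 in shBruce Starv (edgeR adjusted p = 1.69e-07). The tissue factor gene F3 fell too (log2 fold changes -2.39 and -2.70, edgeR adjusted p = 6.85e-05 and 3.04e-05). Hbegf, which encodes an EGF receptor ligand, fell by 2.60 on the log2 scale in shRenilla MEFs (edgeR adjusted p = 0.000205), and Thbs1, which encodes a matrix glycoprotein, fell by 2.42 on that scale in shBruce MEFs (edgeR adjusted p = 1.52e-06). Hbegf and Thbs1 are each given only for the line where they were among the 3 largest decreases of the list. This does not mean that they were unchanged in the other line. Of 16 other immediate-early genes, 10 fell in shRenilla and 8 in shBruce MEFs (medians -0.82 and -0.87), against the same 7.27% and 10.6% of all genes. They were led by Cyr61 (-3.06 and -3.50, edgeR adjusted p = 0.000183 and 7.15e-05) and Ctgf (-2.91 and -3.34, edgeR adjusted p = 0.000172 and 6.48e-05), which encode matrix-associated growth regulators. The 1 that rose in each line was Atf3, which like Maff is also counted among the partners.

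To ask what the knockdown line changed, shBruce was compared with shRenilla MEFs in each medium. These comparisons share their libraries with those of starvation. In FM, 0 of the 10 genes and 0 of all 12154 (0.0%) passed edgeR's test, while 1 member and 1750 genes had an unadjusted p under 0.05, and DESeq2's Wald test called 76 genes. The member was Egr1, with all shBruce FM libraries (942 to 975) below all shRenilla FM libraries (1324 to 1501). The log2 fold change of Egr1 was -0.59 (95% confidence interval -1.17 to -0.01, edgeR adjusted p = 0.341, and 0.0283 in a fit of only the groups compared). Jund (0.48, -0.14 to 1.09, edgeR adjusted p = 0.42) passed in that narrower fit as well (0.048). Libraries were also apart for Jund and Fosl2, 3 of 10 genes in all, where 17.0% of all genes lay lower and 16.4% higher without overlap. The log2 differences of the other 8 members were between -0.38 and 0.40, and the widest interval was that of Egr3 (-0.50 to 1.29). None of the pathway lists had a gene past the test in FM.

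In Starv, 2 of the 10 genes passed, both higher in shBruce MEFs, against 12.8% of all genes higher, 11.2% lower and 23.9% in either direction. Junb was counted at 631, 548 and 764 in shRenilla Starv and at 1092, 956 and 852 in shBruce Starv, without overlap (log2 fold change 0.58 ± 0.17, SE; edgeR adjusted p = 0.0332). Jund, at 1055, 970.1 and 1462 against 3246, 1998 and 1130.4, overlapped through shBruce replicate 3 (0.87 ± 0.29, SE; edgeR adjusted p = 0.0445, exact permutation p = 0.2). After removal of the trends of each library with exon length and GC content, the differences were 0.05 (adjusted p = 0.811) for Junb and 0.15 (0.546) for Jund. Jund (67.1% GC in its longest transcript, 1668 bases of exon) and Junb (62.6% GC, 1809 bases) had the highest GC content and the shortest exon length of the 10 genes. The part of length and GC content in these line differences was not tested. Without shBruce Starv replicate 1, the line differences were 0.47 (adjusted p = 0.0977) for Junb and 0.41 (0.207) for Jund. Both calls were also lost in a fit of only the groups compared and without shBruce Starv replicate 2, shRenilla Starv replicate 1 or 2, or shRenilla FM replicate 3. The Jund call was lost as well without any other FM library (adjusted p from 0.0504 to 0.063) and with limma-voom (0.0693). Junb was the 1 gene of 10 without overlap, where 16.4% of all genes lay higher and 18.5% lower without overlap.

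**Figure D4:**
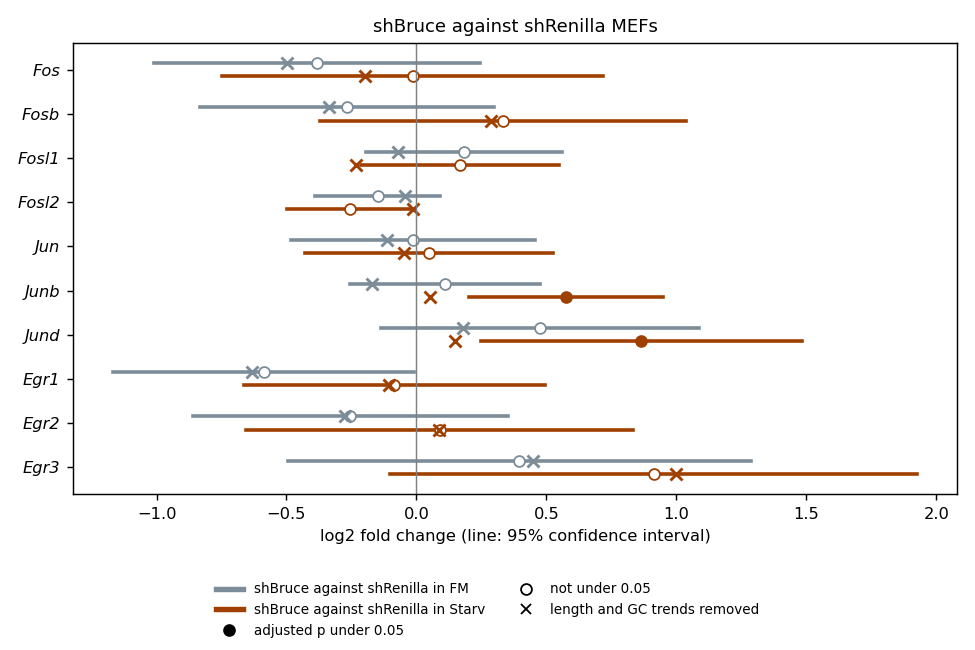
Line difference, as log2 of shBruce over shRenilla (horizontal axis), in FM (grey) and in Starv (brown), with lines for the 95% confidence intervals, filled circles for an edgeR adjusted p under 0.05 and crosses for the value after removal of each library's length and GC trends. Junb and Jund in Starv pass at 0.58 and 0.87, and their crosses lie at 0.05 and 0.15.

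Prdx2, which shares 351 bases with Junb on the opposite strand, was 0.57 higher (log2) in shBruce Starv than in shRenilla Starv. For Egr1 in Starv, the line difference of -0.09 (95% confidence interval -0.66 to 0.49) became -0.63 (edgeR adjusted p = 0.00442) without shBruce Starv replicate 3. Egr3 differed by 0.91 (-0.10 to 1.93, edgeR adjusted p = 0.159), and by -0.06 without that library. Among the listed pathway genes in Starv, the ERK-activating kinase gene Map2k2 (0.86, edgeR adjusted p = 0.0263) was higher in shBruce MEFs, and Braf (-0.71, edgeR adjusted p = 0.044) and Rps6ka3 (-0.80, 0.0281) were lower. The SRF partner genes Elk4 (-1.03, edgeR adjusted p = 0.0488) and Mkl2 (-0.79, 0.0225) and the dimer partner Atf2 (-0.55, 0.0358) were lower. Of the 18 tested target genes, 2 were higher and 2 lower, against 12.8% and 11.2% of all genes. Pdgfa and Timp1 were higher (1.35 and 0.85, edgeR adjusted p = 0.0225 and 0.047). F3 and Thbs1 were lower (-0.99 and -0.72, edgeR adjusted p = 0.0277 and 0.0225). Of the other immediate-early genes, Ier5l (1.04, edgeR adjusted p = 0.0246) and Ier2 (0.72, 0.0278) were higher and Ctgf (-1.04, 0.0466) was lower. Over all genes, 0 passed for this line difference in a fit of only the groups compared and without shRenilla Starv replicate 1 or 2, so each of these list gene calls was lost there, as it was without shBruce Starv replicate 2. With the length and GC trends removed, Mkl2 (-0.38, edgeR adjusted p = 0.0483), Pdgfa (1.31, 0.0366) and F3 (-1.10, 0.0369) still passed and the others named here did not, and without shBruce Starv replicate 1 only Mkl2 (-0.77, 0.0483) and Pdgfa (0.91, 0.0483) did.

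Whether starvation acted differently in the lines was tested by the interaction of line and medium. It passed for 0 of the 10 genes and for 0 of all genes (0.0%), with 0 members and 474 genes at an unadjusted p under 0.05, and DESeq2's Wald test called 0. The interaction estimates ran from -0.11 for Fosl2 (95% confidence interval -0.45 to 0.24) to 0.60 for Fosb (standard error 0.42), on the log2 scale. Junb had 0.47 (-0.06 to 0.99, unadjusted p = 0.0757, edgeR adjusted p = 0.806). The intervals were narrowest for Fosl2 and Junb, spanned -0.55 to 0.52 for Fosl1 and were widest for Egr3 (-0.83 to 1.86). Differences between the lines of the sizes within each interval remain compatible with these data.

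As a description over the 12 libraries, which share the contrast of media, Pearson correlations of log2 normalized counts between members were highest for Fosb with Jun (0.973) and Fosl2 with Jun (0.967) and lowest for Jund with Egr1 (-0.571). The genes outside the family most alike were Dusp7, which encodes an ERK phosphatase, and Hbegf for Fosb (0.988 each), the cytokine genes Csf1 and Lif for Fosl2 (0.993 each) and Sema7a (0.991) and Mlx (0.986) for Fosl1. For Jun they were Phlda1 (0.984) and Tsku (0.977), and for Junb Ppan (0.985) and Szrd1 (0.984). The patterns of Fos were less closely matched, by Ankrd27 (0.925) and Tle1 (0.919), and Egr2 was most like Kdm8 and Polg (0.965 each). Jund was most like Pgp (0.990) and the mitochondrial ribosomal protein gene Mrpl53 (0.989), Egr1 like Aplp2 (0.912) and the matrix gene Postn (0.863), and Egr3 like the developmental factor genes Sox2 (0.985) and Six2 (0.965). Of the 10 genes, Egr1 and Fos had the lowest best correlation with any other gene.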

How the data were processed

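The authors isolated RNA from MEFs, sequenced poly(A)-enriched libraries, mapped reads to mm10 with STAR 2.4.0d and deposited raw read counts per gene from HTSeq 0.5.4p3, without normalization (tool versions per the labels). The strand setting and the gene annotation are not given in the sources used here. All 24062 symbols and 12 libraries were used, and 27 symbols had become dates. The test was that of edgeR 4.0.16 under R 4.3.3 (TMM, filterByExpr, a mean per condition in a joint fit, quasi-likelihood test, two-sided, Benjamini-Hochberg over 12154 genes, level 0.05). GENCODE M21 (GRCm38) gave exon lengths and the GC content of each gene's longest transcript, and RefSeq gave promoters. On simulated counts for Starv against FM in shRenilla MEFs (12037 genes), 161 of 200 genes changed 2-fold were recovered with 10 false calls. The changed genes were drawn above a minimum mean count that Fos and Egr2 do not reach, and only shRenilla Starv was changed. The recovery therefore does not cover those genes or the comparisons with shBruce MEFs. Named genes were all members, Birc6, up to 3 higher and 3 lower genes of each list per comparison by size among those past the threshold, and the 2 genes most correlated with each member. Members and lists were chosen with earlier results of these data known. Alternatives were DESeq2's size factors or its Wald test (1.42.0), limma-voom (3.58.1), no filter, at least 10 counts in every library, only the groups compared, a replicate block, trends against length and GC content removed (spline, 4 degrees of freedom, 12052 genes) and each library left out. Figures were drawn with matplotlib 3.10.9. A gene of the kinase list is not reported here.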

Additional observations from a re-analysis of the deposited data

How the results depend on the processing

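Of the values of the 10 genes under the alternatives, 903 kept their direction and their side of the threshold, 34 lost a call, 8 gained one and 40 changed sign. The members called with starvation ranged from 6 to 9 in shRenilla and from 5 to 8 in shBruce MEFs with a library left out. In FM, a fit of only the groups compared called 2 members. In Starv, limma-voom called 1 member, and a fit of only the groups compared and the removal of length and GC trends called 0. With a library left out it was 0 to 3. The cause was not tested. The replicate block called 0 members in Starv, against 2 without it, and 8 and 7 for starvation, as without it. Same-numbered libraries correlated between -0.437 and 0.326, and 12 of 36 matches were best with the own number, so the numbers were not taken as pairs. Over all genes, the fit of only the groups compared called 5013, 956, 597 and 0 genes (starvation in shRenilla and shBruce, line in FM and Starv) against 2061, 2790, 0 and 2907, and removal of the trends called 2948, 3864, 2 and 841. In FM, DESeq2's Wald test called 76 and no filter 7, and the replicate block called 1932 in Starv. With a library left out, the counts ranged from 1149 to 3212, 1855 to 4009, 0 to 32 and 0 to 5735. In Starv the lowest came without shRenilla Starv replicate 1 or 2 (0 each), with 15 without shBruce Starv replicate 2 and 573 without replicate 1, and the highest without replicate 3.

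The values that changed sign had not passed the test, and that of Egr3 in Starv was 0.91. With the trends removed, the line difference was -0.072 (Fosl1) and -0.171 (Junb) in FM and -0.232 (Fosl1) and -0.0472 (Jun) in Starv, and the interaction was 0.0322 (Fosl2) and -0.0303 (Jund). Limma-voom gave Jun -0.0425 in Starv and an interaction of -0.0297. With a library left out, starvation in shBruce MEFs ranged from -0.618 to 0.136 for Jund and from -0.208 to 0.588 for Egr1. The line difference in FM ranged from -0.0549 to 0.0421 for Jun, -0.0548 to 0.235 for Junb and -0.11 to 0.595 for Egr3. In Starv it ranged from -0.538 to 0.311 (Fos), -0.105 to 0.544 (Fosb), -0.0293 to 0.316 (Fosl1), -0.371 to 0.23 (Jun), -0.628 to 0.168 (Egr1), -0.394 to 0.331 (Egr2) and -0.0649 to 1.25 (Egr3). The interaction ranged from -0.156 to 0.693 (Fos), -0.213 to 0.132 (Fosl1), -0.371 to 0.242 (Jun), -0.0749 to 0.692 (Jund), -0.0406 to 0.755 (Egr1), -0.139 to 0.639 (Egr2) and -0.462 to 1.03 (Egr3). The depth limits Fos and Egr2 most, at 10 to 58 and 8 to 72 reads per library.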
